A study of Mus musculus with 2 samples.

Results

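Genes of MHC class I antigen presentation and genes linked to interferon were followed in 1 Sox11 knockout and 1 wild-type littermate sample of mouse embryonic retina. The 9 genes are B2m, H2-K1, H2-D1, Tap1, Tap2, Psmb8, Ifitm2, Ifitm3 and Irf1. They were taken as all probe sets whose platform annotation gives exactly 1 gene symbol that is one of these names, which gave 25 of 45037 probe sets and 9 of 18193 named genes. The genes had been selected on measured values of the same 2 arrays, so every ratio below is a description of these arrays, carries no test and supports nothing beyond them.

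The Sox11 KO group is 1 sample of Sox11-/- retina, and the WT group is 1 sample of wild-type retina. How many retinas or embryos each sample held is not given here. Both samples had the C57BL/6 background and were taken at embryonic day 18. Biotin-labelled copies of the total RNA of each were read on 1 Affymetrix mouse array. With 1 array for each genotype there is no spread between animals, no error can be given, and the number of arrays limits the precision. How the Sox11 allele was made, and whether it is missing from all cells, is not stated in the labels.

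MHC class I molecules sit on the surface of nucleated cells and show short peptides from the cell's own proteins to cytotoxic T cells. The molecule is a heavy chain, encoded in mice by genes such as H2-K1 and H2-D1, paired with the small invariant chain beta-2 microglobulin. Peptides are cut by the proteasome, in which interferon can exchange standard catalytic subunits for immunoproteasome subunits, and are carried into the endoplasmic reticulum by the TAP transporter. Neurons carry little class I protein, and in mice that lack class I function the connections from retina to thalamus are refined abnormally. Interferons raise the transcription of most genes of this pathway through STAT proteins and interferon regulatory factors (IRFs), which bind IRF and GAS sequences in promoters.

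The promoters are shown for the 3 genes with the clearest higher values in the knockout (B2m, Ifitm2 and Ifitm3) beside an MHC heavy chain and an interferon regulator that were not higher on their brightest probe sets (H2-K1 and Irf1). Each window runs from 250 bases before to 50 bases after the annotated start, 5′ to 3′, from RefSeq on build GRCm38.p6. Capitals mark matches to the IRF core AANNGAAA on either strand and to the GAS core TTCNNNGAA, which reads the same on both strands.
B2m, chr2:122147437-122147736, plus strand: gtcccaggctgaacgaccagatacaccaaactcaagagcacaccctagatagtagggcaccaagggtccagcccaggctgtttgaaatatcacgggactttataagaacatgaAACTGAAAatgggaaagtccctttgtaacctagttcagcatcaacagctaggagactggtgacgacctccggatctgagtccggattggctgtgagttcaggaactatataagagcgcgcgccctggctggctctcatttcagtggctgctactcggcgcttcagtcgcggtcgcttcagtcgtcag
Ifitm2, chr7:140955912-140956211, minus strand: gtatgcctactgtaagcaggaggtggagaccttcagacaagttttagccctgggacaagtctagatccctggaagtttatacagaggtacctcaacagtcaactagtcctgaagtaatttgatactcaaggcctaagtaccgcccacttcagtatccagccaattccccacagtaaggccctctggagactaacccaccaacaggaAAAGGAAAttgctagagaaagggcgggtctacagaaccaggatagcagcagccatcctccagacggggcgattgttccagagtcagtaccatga
Ifitm3, chr7:141010695-141010994, minus strand: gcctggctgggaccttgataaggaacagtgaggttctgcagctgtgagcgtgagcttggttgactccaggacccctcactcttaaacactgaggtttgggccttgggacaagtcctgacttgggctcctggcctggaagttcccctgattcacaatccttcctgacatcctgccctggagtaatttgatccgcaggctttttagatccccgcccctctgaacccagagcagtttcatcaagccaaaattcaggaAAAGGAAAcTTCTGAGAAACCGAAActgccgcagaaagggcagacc
H2-K1, chr17:34000298-34000597, minus strand: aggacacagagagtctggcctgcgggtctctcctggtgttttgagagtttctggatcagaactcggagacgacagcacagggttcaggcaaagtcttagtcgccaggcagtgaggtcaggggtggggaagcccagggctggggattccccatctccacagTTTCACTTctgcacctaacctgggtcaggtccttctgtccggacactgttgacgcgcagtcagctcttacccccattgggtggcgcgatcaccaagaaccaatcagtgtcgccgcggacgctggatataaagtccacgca
Irf1, chr11:53769764-53770063, plus strand: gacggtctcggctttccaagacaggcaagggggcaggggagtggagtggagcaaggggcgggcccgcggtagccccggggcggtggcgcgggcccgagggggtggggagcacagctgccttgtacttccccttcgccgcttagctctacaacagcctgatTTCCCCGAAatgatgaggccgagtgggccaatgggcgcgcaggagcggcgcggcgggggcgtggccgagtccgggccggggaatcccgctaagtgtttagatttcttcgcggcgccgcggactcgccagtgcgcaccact

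In these windows, B2m, H2-K1 and Ifitm2 held 1 IRF match each, and the Irf1 window held 1 GAS match and no IRF match. The B2m match began 137 bases upstream of the start and the Ifitm2 match 44 bases upstream. The H2-K1 match, on the opposite strand, covered the bases from 90 to 83 upstream, and the GAS match of Irf1 those from 90 to 82 upstream. Ifitm3 held 2 IRF matches and 1 GAS match, all just downstream of the annotated start, and its GAS match shared 1 base with the second IRF match. The table held windows for 8 of the 9 genes. Of these, 5 had an IRF match and 3 a GAS match in the first window. Over all promoters of the same length, 23.9% of 32851 windows held an IRF match and 8.30% a GAS match. Counted by gene, with a match in any of its windows, the shares were 26.7% and 9.55% of 27025 genes. The 9 genes were grouped by their link to class I and interferon, so nothing is read from these shares. A match in these letters is a description and not a bound site.

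**Figure D1:**
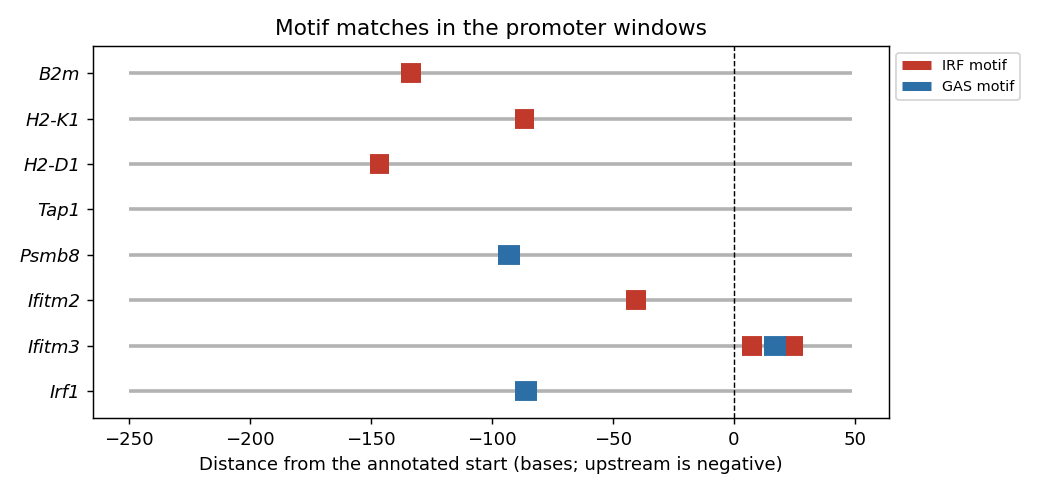
Matches to the IRF core (red) and the GAS core (blue) in the first promoter window of 8 genes, by distance in bases from the annotated start (dashed line; upstream is negative). The matches of B2m, H2-K1, H2-D1, Psmb8, Ifitm2 and Irf1 lie upstream of the start, those of Ifitm3 lie downstream, and Tap1 has none.

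Values are intensities in arbitrary units on a linear scale, as deposited. Ratios are Sox11 KO minus WT of log2(intensity + 5), and the added 5 makes the ratio of a dim probe set smaller than that of its intensities. The pooled median of all intensities, 18.6, serves as a mark for dim signal, since detection calls were not used here. A further mark comes from 27 control probe sets for genes of a Bacillus bacterium, which read 0.1 to 6.5 on the Sox11 KO array and 0.1 to 7.4 on the WT array. Whether those transcripts had been added to the samples is not given in the sources used here.

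The 2 arrays carried retinal RNA, and they differed in more than Sox11. Of 12 neural retina markers 10 were measured, all above an intensity of 18.6 on both arrays (the median of all probe sets), with a median log2 ratio of -0.09. Nrl, which directs the rod fate, had the largest ratio of these, at -1.12, and Rcvrn, Crx and Isl1 had -0.28, -0.26 and 0.20. Sox11 gave log2 ratios from -3.64 to 1.08 over 6 probe sets, with 252.4 on the Sox11 KO array and 3205.7 on the WT array at the brightest. Xist, the RNA of the inactive X chromosome, read 922.7 on the Sox11 KO array and 12.3 on the WT array, and the Y-linked gene Eif2s3y read 4.7 and 214.0. Sex and genotype of the embryos cannot be told apart here. The 6 control probe sets for actin and Gapdh had log2 ratios between -0.17 and -0.02.

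Across the 9 genes the values were mixed. The light chain B2m and the membrane proteins Ifitm2 and Ifitm3 were higher on the Sox11 KO array, the brightest probe sets of the heavy chains H2-K1 and H2-D1 and of the regulator Irf1 were lower, and Tap1, Tap2 and Psmb8 were too dim to place. Of the 25 probe sets 13 had a positive and 12 a negative ratio, with a median of 0.03 beside 0.02 over all probe sets. The ratios ran from -0.93 to 1.36. At least 1.5-fold higher were 7 of the 25, where 8.92% of all probe sets were, and at least 2-fold higher were 4, where 2.03% of all were. At least 1.5-fold lower were 2, beside 6.38% of all probe sets. Since the genes were chosen on this contrast, nothing is read from these shares.

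Most of the probe sets past 1.5-fold were dim. On both arrays 10 of the 25 reached 18.6, 14 were below it on both, and for 8 neither intensity was above 7.4, the highest bacterial control. The 10 bright probe sets belonged to 6 genes, and 5 were higher and 5 lower in the knockout, with a median of 0.12 beside 0.02 over the 21472 probe sets of that brightness. Of the 10, 2 were at least 1.5-fold higher, those of Ifitm2 and Ifitm3, where 3.71% of all bright probe sets were. The remaining 5 past 1.5-fold were below 18.6 on both arrays.

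**Figure D2:**
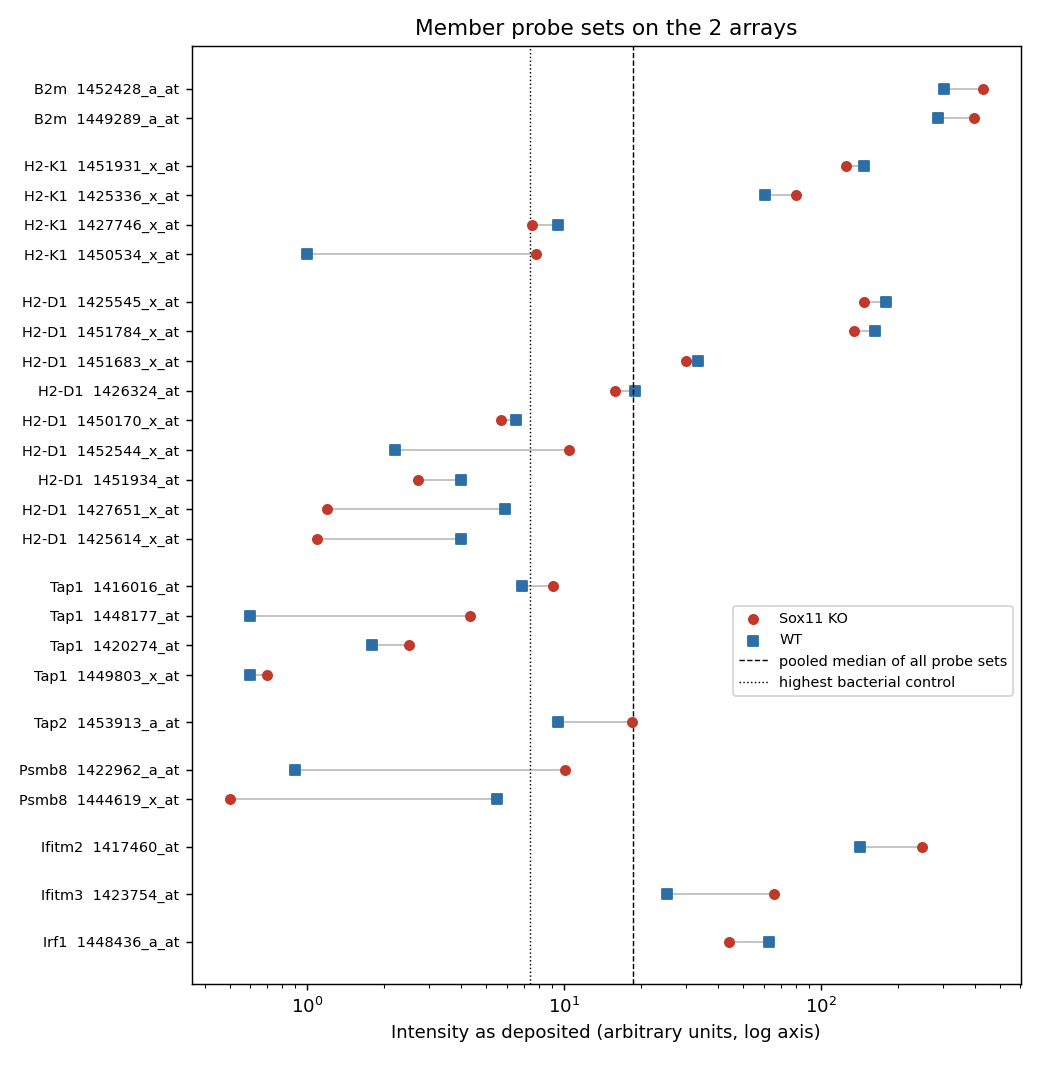
Intensity of each of the 25 probe sets on the Sox11 KO array (red circles) and the WT array (blue squares), on a log axis in arbitrary units, grouped by gene. The dashed line is the pooled median of all probe sets (18.6) and the dotted line the highest bacterial control (7.4); red lies to the right of blue for B2m, Ifitm2 and Ifitm3 and to the left for Irf1 and for most bright probe sets of H2-D1 and H2-K1.

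B2m, the invariant light chain without which most class I heavy chains do not reach the cell surface, was measured by 2 probe sets that gave nearly the same answer. Probe set 1452428_a_at read 428.4 on the Sox11 KO array and 301.7 on the WT array, a log2 ratio of 0.50. Probe set 1449289_a_at read 397.5 on the Sox11 KO array and 287.7 on the WT array, a log2 ratio of 0.46. Both were higher in the knockout, by less than 1.5-fold. When all probe sets were put into 20 equal bands by mean level, the central 95% of ratios ran from -0.37 to 0.43 in the band of the first probe set and from -0.42 to 0.47 in that of the second. The first thus lay just above its band and the second just inside.

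H2-K1, one of the classical heavy chains that bind peptide, had 4 probe sets, and they differed in sign. The brightest, 1451931_x_at, read 125.9 on the Sox11 KO array and 147.2 on the WT array, a log2 ratio of -0.22. Probe set 1425336_x_at read 80.5 on the Sox11 KO array and 60.7 on the WT array, a log2 ratio of 0.38. Both lay inside their bands of level. The other two were dim, and one of these, 1450534_x_at, read 7.8 in the knockout and 1.0 in the wild type, so its ratio of 1.09 rests on values close to or within the range of the bacterial controls.

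H2-D1, the other classical heavy chain measured here, had 9 probe sets, of which 8 were lower in the knockout. The brightest, 1425545_x_at, read 147.0 on the Sox11 KO array and 180.5 on the WT array, a log2 ratio of -0.29. Probe set 1451784_x_at read 135.4 in the knockout and 162.3 in the wild type, a log2 ratio of -0.25. Probe set 1451683_x_at, dimmer, read 29.9 in the knockout and 33.2 in the wild type, a log2 ratio of -0.13. These differences were small and lay inside the bands of their level. The exception in sign was the dim 1452544_x_at, at 10.5 in the knockout and 2.2 in the wild type.

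Heavy chain genes are close relatives of one another, and 11 of the 13 probe sets for H2-K1 and H2-D1 carry the suffix x, which marks probes that can bind other transcripts. Which heavy chain gave a signal is therefore uncertain. Of the 5 probe sets of both genes that were bright on both arrays, 4 were lower in the knockout, with log2 ratios from -0.29 to -0.13, and 1 was higher, at 0.38. The light chain probe sets, at 0.50 and 0.46, thus had positive ratios where the brightest heavy chain probe sets had negative ones. That difference between genes was not tested. The platform annotation gave 3 further probe sets several symbols that include H2-K1 or H2-D1, which the rule leaves out. The one for both genes, 1424948_x_at, read 12.6 in the knockout and 16.5 in the wild type, a log2 ratio of -0.29. Probe set 1451593_at, for H2-Q5 and H2-K1, read 7.7 in the knockout and 19.5 in the wild type, a log2 ratio of -0.95. The last, 1422348_at, whose symbols include H2-Q2 and H2-D1, read 2.9 in the knockout and 0.6 in the wild type, a log2 ratio of 0.50.

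Heavy chains outside this pair were mostly dim. Of 19 listed class I and class I-like genes 11 were measured, 7 with a positive and 4 with a negative ratio, and their median log2 ratio was 0.17 beside -0.01 over all genes. Only 2 were above 18.6 on both arrays. Cd1d1, which presents lipids and not peptides, read 303.0 in the knockout and 402.4 in the wild type, a log2 ratio of -0.40. H2-T24, a non-classical heavy chain gene, read 52.4 in the knockout and 35.4 in the wild type, a log2 ratio of 0.51. Fcgrt, the heavy chain of the neonatal Fc receptor, read 29.8 in the knockout and 16.3 in the wild type, at least 1.60-fold higher when the lower value is set to 18.6. In this list 2 genes passed 1.5-fold upward, as did 6.40% of all genes, and 2 passed it downward, as did 5.94% of all genes.

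**Figure D3:**
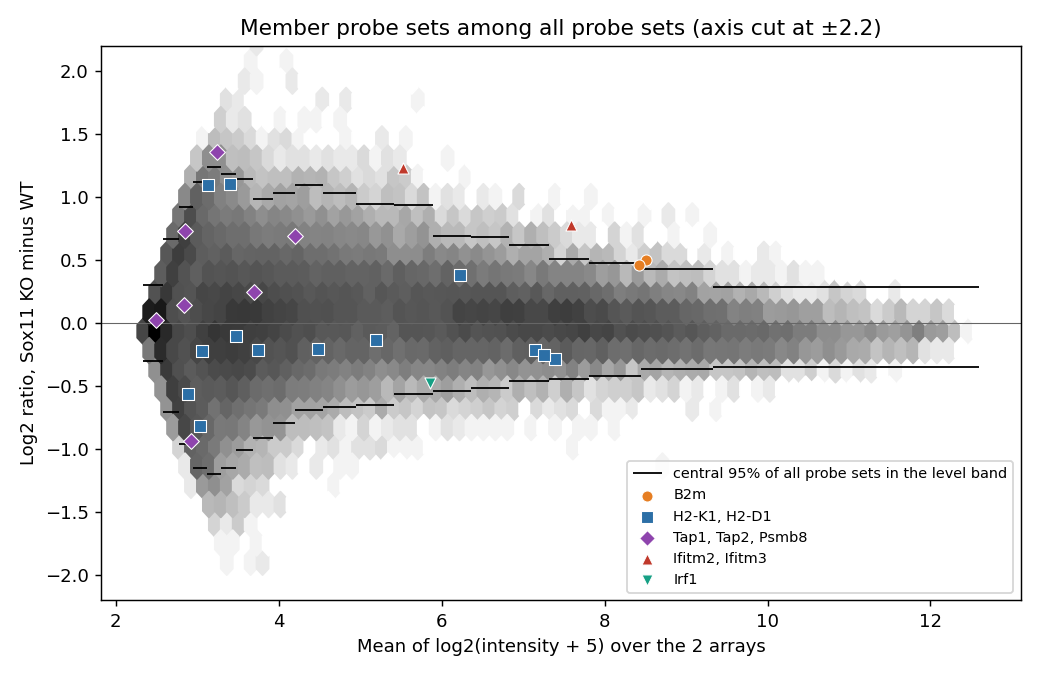
Log2 ratio, Sox11 KO minus WT, against the mean of log2(intensity + 5) over both arrays, for all probe sets (grey, darker where more lie) and the 25 probe sets of the 9 genes (coloured by role). Black bars mark the central 95% of ratios in each of 20 level bands; both Ifitm probe sets, 1 of the B2m probe sets and 1 dim Psmb8 probe set lie above their bar, and none lies below.

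Tap1 and Tap2 encode the paired chains of the transporter that moves peptides into the endoplasmic reticulum. The 4 Tap1 probe sets read 0.7 to 9.1 on the Sox11 KO array and 0.6 to 6.9 on the WT array. All 4 had positive ratios, from 0.03 to 0.73, but no intensity came near 18.6. Tap2 read 18.4 on the Sox11 KO array and 9.5 on the WT array, a log2 ratio of 0.69 that lay inside its band (-0.69 to 1.10). No fold is given for Tap1 or Tap2, since both arrays lie below the mark for dim signal.

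Psmb8 is an immunoproteasome subunit that interferon induces and that takes the place of the standard subunit Psmb5. Its 2 probe sets pointed in opposite directions. Probe set 1422962_a_at was dim but above 7.4 on the Sox11 KO array and read 0.9 on the WT array, and 1444619_x_at read 0.5 in the knockout and 5.5 in the wild type. The log2 ratios were 1.36 and -0.93, and neither array reached 18.6 for either of them. No direction can be given for Psmb8 from these arrays.

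Most other genes of peptide supply and loading had small ratios on their brightest probe sets. Of 11 listed genes 10 were measured, 6 with a positive and 4 with a negative ratio, and the median log2 ratio was 0.03. The 6 that were bright on both arrays split evenly, with a median of 0.00. Tapbp, the tapasin that bridges TAP and the class I molecule, read 70.1 in the knockout and 60.4 in the wild type, a log2 ratio of 0.20. Psme1, a subunit of the PA28 proteasome activator, read 476.5 and 445.4, a log2 ratio of 0.10. The chaperones Calr and Canx had log2 ratios of -0.05 and -0.09, but another bright Canx probe set, 1422845_at, read 589.8 in the knockout and 429.7 in the wild type, a log2 ratio of 0.45. Psmb9, the immunoproteasome subunit encoded beside Tap1, read 8.1 in the knockout and 2.9 in the wild type, a log2 ratio of 0.73. Psmb9 was thus dim on both arrays, and it was the 1 gene of this list past 1.5-fold, beside 6.40% of all genes.

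The standard proteasome subunits that immunoproteasome subunits replace were bright and slightly lower. Psmb5 read 813.0 on the Sox11 KO array and 943.1 on the WT array, a log2 ratio of -0.21. Psmb6 and Psmb7 had log2 ratios of -0.14 and -0.13. All 3 lay inside the central 95% of their band, which ran from -0.35 to 0.29.

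Ifitm2 and Ifitm3 encode small membrane proteins that interferon induces and that hinder the entry of enveloped viruses into cells. Ifitm2 read 248.0 on the Sox11 KO array and 142.3 on the WT array, a log2 ratio of 0.78. Ifitm3 read 65.7 on the Sox11 KO array and 25.2 on the WT array, a log2 ratio of 1.23. Each gene had 1 probe set, bright on both arrays, and both lay above the central 95% of their level, whose upper ends were 0.51 for Ifitm2 and 0.93 for Ifitm3. On the intensities themselves, Ifitm2 was 1.74 times and Ifitm3 2.61 times as high in the knockout as in the wild type. The family is similar in sequence, so a share of either signal may come from a relative. Neither probe set carries the suffix x, and that share was not tested.

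The 5 other measured Ifitm genes all had positive ratios, and none reached 18.6 on either array. They read 4.3 to 16.6 on the Sox11 KO array and 1.4 to 15.4 on the WT array. Their median log2 ratio was 0.51, and when values below 18.6 were set to 18.6 it was 0.00. No order among them can be given from values this dim.

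Irf1 is a transcription factor that interferon gamma induces and that in turn activates class I heavy chain, Tap1 and immunoproteasome genes. It read 44.0 on the Sox11 KO array and 63.0 on the WT array, a log2 ratio of -0.47. Irf1 was thus lower in the knockout, inside its band of -0.56 to 0.93. Its ratio was opposite in sign to those of B2m, Ifitm2 and Ifitm3. Among 8 other measured IRF genes and cofactors, no gene was 1.5-fold apart, and 6 had a positive ratio. Irf9, which joins STAT proteins in the complex that type I interferon activates, read 55.2 in the knockout and 39.2 in the wild type, a log2 ratio of 0.45. Irf2, which can compete with Irf1 for the same sites, and its cofactor gene Irf2bp2 had log2 ratios of 0.19 and 0.16, and Irf3, which turns on interferon genes themselves, had -0.19.

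Receptors and signal carriers of interferon were mixed. Of 13 measured genes 6 had a positive and 7 a negative ratio, with a median of -0.05, and 12 of them were bright on both arrays. Ifnar2, a chain of the type I receptor, read 47.9 in the knockout and 74.5 in the wild type, a log2 ratio of -0.59, but its 3 probe sets ran up to 0.32. Ifngr2, a chain of the interferon gamma receptor, read 94.1 and 61.4, a log2 ratio of 0.58, and its other probe set gave -0.06. Stat3, a signal carrier that many cytokines use, had a log2 ratio of 0.38, and all 4 of its probe sets were positive.

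Genes that interferon induces had more positive than negative ratios, with the larger ones mainly among dim genes. Of 42 listed genes 39 were measured, 27 with a positive and 11 with a negative ratio, and the median log2 ratio was 0.32. At least 1.5-fold higher were 12 of the 39, beside 6.40% of all genes, and none was 1.5-fold lower. Only 12 of the 39 were bright on both arrays, where 10980 of all 18193 genes were, so the 6.40% comes from a brighter set of genes. In the 12 bright genes the split was 7 positive to 5 negative with a median of 0.12. When values below 18.6 were set to 18.6, the median of the list was 0.00. Quantile normalization gave the full list a median of 0.21, and a pseudocount of 18.6 gave 0.18. As a background for dim signal, the median intensity of all probe sets was 19.7 on the Sox11 KO array and 17.6 on the WT array, and the 21456 probe sets below 18.6 on both arrays had a median log2 ratio of 0.00.

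Among the interferon-induced genes with the largest ratios, the wild-type value was dim. Oasl2, of the antiviral oligoadenylate synthetase family, read 30.9 in the knockout and 12.7 in the wild type, at least 1.66-fold higher. Igtp, a GTPase that acts against parasites inside cells, read 23.7 and 8.3, at least 1.27-fold higher. Rtp4 read 20.4 and 1.8 and Bst2, which tethers virus particles to the cell, 18.7 and 4.9, with bounds of 1.10-fold and 1.01-fold. Ifi35 was the one bright gene of the list past 1.5-fold, with 55.5 in the knockout and 25.7 in the wild type, a log2 ratio of 0.98. Its other probe sets were dim in the wild type. They read 23.8 in the knockout and 9.1 in the wild type, and 10.3 and 1.0, with log2 ratios of 1.03 and 1.35. Ifit2, also bright and strongly induced by type I interferon, was lower, at 59.1 in the knockout and 75.6 in the wild type.

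MHC class II genes present peptides from outside the cell and are used by macrophages and other specialised cells. Of 10 measured genes 4 had a positive and 6 a negative ratio, with a median of -0.24, which was 0.00 when values below 18.6 were set to 18.6. H2-Ab1 was the one gene whose brightest probe set reached 18.6 on both arrays, at 36.1 in the knockout and 40.8 in the wild type, and its other two probe sets had positive log2 ratios of 0.19 and 0.51. Cd74, the chain that guards the class II groove, read 9.4 and 16.3, and H2-DMa, which helps to load class II with peptide, 20.8 and 17.3.

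**Figure D4:**
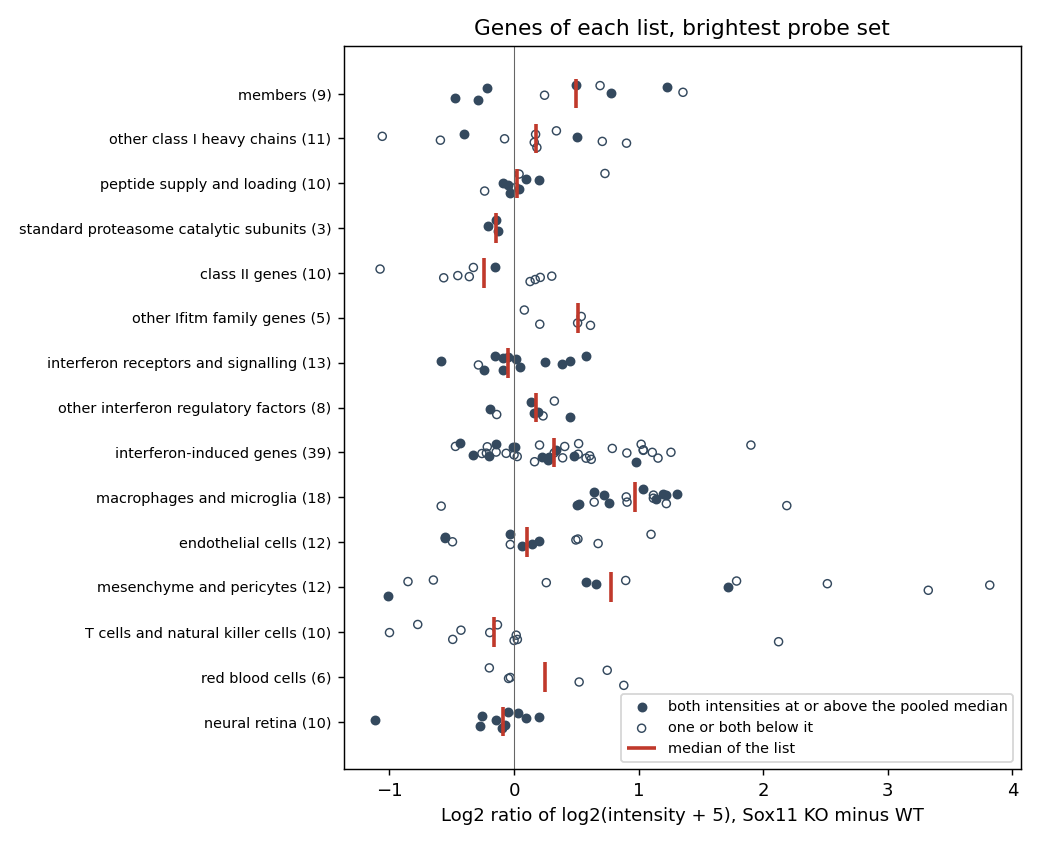
Log2 ratio, Sox11 KO minus WT on the log2(intensity + 5) scale, of each measured gene (its brightest probe set) in 15 lists, with the number of genes in parentheses; filled points are at or above 18.6 on both arrays and the red bar is the list median. The medians are 0.32 for interferon-induced genes, 0.97 for macrophages and microglia and 0.78 for mesenchyme and pericytes, and the members spread from -0.47 to 1.36.

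Markers of other cells that a dissected retina can hold had unlike levels on the 2 arrays. In bulk RNA, fewer cells of a type and less RNA per cell cannot be told apart. All 18 macrophage and microglia markers were measured, 17 with a positive ratio, and their median log2 ratio was 0.97. Of all 18193 genes, 8615 had a positive ratio. At least 1.5-fold higher were 15 of the 18, beside 6.40% of all genes. The dim Itgam was 1.5-fold lower, beside 5.94% of all genes. The intensities of the 18 markers summed to 1103.5 on the Sox11 KO array and 542.7 on the WT array, and none was listed at 0. Csf1r, the receptor for the growth factor of these cells, read 246.4 in the knockout and 147.7 in the wild type. C1qa, a complement gene that microglia make, read 85.6 and 33.8, and its partner genes C1qb and C1qc had log2 ratios of 1.31 and 1.20. Mpeg1, which encodes a pore protein of macrophages, read 51.1 in the knockout and 7.3 in the wild type, at least 2.75-fold higher. The part of these cells in the values of B2m, Ifitm2 and Ifitm3 was not tested.

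Mesenchyme and pericyte markers were higher as well, by a median of 0.78 over 12 genes, 9 of them positive. Their intensities summed to 914.9 in the knockout and 403.5 in the wild type, and the collagen gene Col3a1, with 253.2 in the knockout and 13.3 in the wild type, was at least 13.6-fold higher. The matrix genes Dcn, Lum and Postn were at least 7.17, 2.87 and 2.09 times as high, and like Col3a1 they reached 18.6 in the knockout alone. At least 1.5-fold higher were 7 of the 12, beside 6.40% of all genes. The list was not uniform: 3 of the 12 were at least 1.5-fold lower, beside 5.94% of all genes. These were the dim Twist1 and Cspg4 and the bright Pdgfra, a growth factor receptor gene. Pdgfra read 74.9 in the knockout and 156.2 in the wild type, with all 3 probe sets lower. Endothelial markers had a median of 0.10, with 7 of 12 positive, and summed to 790.4 in the knockout and 958.7 in the wild type. Without Kdr the sums were 334.3 in the knockout and 285.5 in the wild type, the opposite direction. Kdr, a VEGF receptor, had a log2 ratio of -0.56, the tight junction gene Cldn5 0.14 and Egfl7 0.20, and Esam was at least 1.34-fold higher. The part of these cells in the values of the 9 genes was not tested either. Markers of T cells and natural killer cells were dim: 9 of 10 did not reach 18.6 on either array, and the exception was Zap70. The brightest Zap70 probe set read 43.8 in the knockout and 6.2 in the wild type. The other probe sets of Zap70 were dim on both arrays and differed in sign, with log2 ratios of -0.40 and 0.81. Markers of red blood cells did not reach 18.6 on either array in any of 6 genes.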

How the data were processed

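The authors deposited 1 intensity for each probe set and array, on a linear scale; the software behind it is not given in the sources used here. Both arrays had a trimmed mean of 100.0 (2% trimmed from each end), so they had been scaled alike. The labels gave each array its genotype. After 64 control probe sets were left out, ratios were taken on the log2(intensity + 5) scale, where 5 is the rounded pooled 25th percentile, with no further normalization and no filter. Names came from the platform annotation held by GEO (1 symbol for 34945, several for 932, none for 9160), and symbols were updated by Entrez number through a gene table of assembly GRCm38.p6. Each gene was given the value of its brightest probe set, by mean log2 level. Bounds set the dimmer intensity to the pooled median of 18.6.

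There was no test, since each genotype has 1 array. All 9 genes, and in each list the 4 genes with the largest ratios among those reaching 18.6 on an array, were named by rule; other genes were named after their values were seen. The members and lists were chosen with earlier results of these data known. The ratio and counting steps were tested on simulated data. Python 3.11.15, NumPy 2.4.6, pandas 2.3.3 and statsmodels 0.14.6 were used. Alternatives were 3 other scalings (centring on the median, quantile normalization and loess with span 0.3), 2 other pseudocounts, 3 filters on low values, leaving out probe sets with the suffixes a, s and x, the median over a gene's probe sets and, added after seeing the data, setting values below 18.6 to 18.6.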

Additional observations from a re-analysis of the deposited data

How the results depend on the processing

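The ratios of B2m (0.48 to 0.51), Ifitm2 (0.73 to 0.80) and Ifitm3 (0.94 to 1.38) were positive, and those of H2-D1 (-0.32 to -0.21) and Irf1 (-0.57 to -0.38) negative, under every setting that gave them a value; H2-K1 ran from -0.26 to 0.08 and was positive with the median over its probe sets. The counts of 7 probe sets past 1.5-fold and 4 past 2-fold stayed within 1.5 times under the 3 scalings and no pseudocount. They were 2 and 0 with the pseudocount at 18.6, 2 and 1 with the mean or both intensities at or above 18.6, 1 and 0 with the mean at or above 109.4, 3 and 1 without probe sets of suffix a, s or x, and 2 and 1 with values below 18.6 set to 18.6. Fewer probe sets were counted under these filters, between 6 and 10 of 25. Over all probe sets, the shares past 1.5-fold and 2-fold were 8.92% and 2.03%. Under the 3 scalings they were 7.74% to 8.32% and 1.73% to 1.84%. They were 17.9% and 10.7% without a pseudocount and 1.79% and 0.19% with it at 18.6. With the mean at or above 18.6 they were 5.08% and 0.98%, and with both intensities 3.71% and 0.49%. With the mean at or above 109.4 they were 1.57% and 0.22%, without suffixes a, s and x 9.44% and 2.11%. With values set to 18.6 they were 2.87% and 0.50%. Without a pseudocount the medians of the other Ifitm genes, T cell and red blood cell lists were 0.95, -0.44 and 0.61. With the pseudocount at 18.6 the Ifitm median was 0.19 and the macrophage median 0.64. With the mean at or above 18.6, 3 other class I genes had 0.51 and 9 mesenchyme genes 1.72. That filter keeps genes that are bright in the knockout alone, such as Col3a1, so nothing is read from the rise. With both intensities at or above 18.6, the median over 4 mesenchyme genes was 0.62. Without probe sets of suffix a, s or x, red blood cells had 0.56. With the median over probe sets, mesenchyme had 1.12. With values set to 18.6, the medians of interferon-induced and Ifitm genes were both 0.00. Beyond values at 0.00, list medians kept their sign with 2 exceptions. That of interferon receptors and signalling ran from -0.09 to 0.11 (positive with the median over probe sets and without suffixes a, s and x), and that of peptide supply and loading from -0.01 to 0.04. Quantile normalization and the pseudocount at 18.6 gave interferon-induced genes 0.21 and 0.18. Beyond the smaller counts the cause was not tested. No paired analysis was possible because each genotype has 1 array.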

Other observations

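On chromosome 17, Psmb9, Tap1, Psmb8 and Tap2 follow each other in the gene table's order, and none of them reached 18.6 on either array. Their brightest probe sets had log2 ratios of 0.73, 0.24, 1.36 and 0.69, but the other Psmb8 probe set had -0.93, and for Psmb9, Tap1 and Psmb8 the wild-type values of those probe sets (2.9, 6.9 and 0.9) lay within the range of the bacterial controls. The measured genes on either side of that group, H2-DMb2 and H2-Ob, were also dim, at -0.33 and 0.30. On chromosome 7, Ifitm1 lies between Ifitm2 and Ifitm3 among the measured genes and had a log2 ratio of 0.21 on dim values. Taking the 2 nearest measured genes on each side of every member gave 25 genes that are no members. Of these, 13 had a positive and 12 a negative ratio, with a median of 0.06, and past 1.5-fold were 2 upward and 1 downward, where 6.40% and 5.94% of all genes were. Beside H2-K1, H2-Ke6, a steroid dehydrogenase gene of the same region, read 104.9 in the knockout and 76.6 in the wild type. Next to H2-D1, Ddx39b, an RNA helicase gene, read 1693.4 and 2081.1.

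Samhd1, which lowers the pool of nucleotides that viruses need and is among the interferon-induced genes, was chosen after its values were seen. Of its 5 probe sets, 1420273_x_at read 2.1 in the knockout and 45.3 in the wild type, a log2 ratio of -2.82, while the brightest, 1434438_at, read 60.8 and 70.6, a log2 ratio of -0.20.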
